A study of Rattus norvegicus with 458 samples.

Results

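The miR-200 family was followed through the 23 tissue labels of a rat small RNA sequencing series. Its members were the rows of the miR-level count table in which the name, or a part of a composite name, was a mature strand of miR-200a, miR-200b, miR-200c, miR-141 or miR-429, with precursor rows left out. The rule took 14 of the 7534 names in the table, namely 9 single strands and 5 composite names given to reads that could not be placed on a single member. The libraries came from naive Sprague Dawley rats of 12 to 13 weeks, 5 males and 5 females, and each TruSeq small RNA library was made from a single tissue of a single rat, except dorsal root ganglia (DRG), for which 5 technical libraries had been made from each of 2 pools of 5 rats of the same sex. Levels are given in CPM, the counts of a name scaled by the total count of its library, as mean ± SD, with n the number of rats, or the 2 pools for DRG.

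The miR-200 family is known from epithelial cells, where its members hold down the transcription factors ZEB1 and ZEB2, repressors of E-cadherin, and so take part in keeping the epithelial state against the change to mesenchymal cells. The genes lie in a pair of clusters, each thought to be read as a single transcript, with miR-200b, miR-200a and miR-429 in one and miR-200c and miR-141 in the other. A miRNA recognises its targets mostly through the seed, the bases just behind its 5′ end, so a shift of that end changes the seed.

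The comparison was of epithelial against non-epithelial tissues. The epithelial class held 9 labels, Pancreas, Kidney, Cortex and Medulla (both of the kidney), Duodenum, Jejunum, Ileum, Stomach_Glandular and Stomach_Non-Glandular, with 86 libraries. The non-epithelial class held 9 labels, Brainstem, Cerebellum, Cerebrum, Hippocampus, DRG, Heart, Muscle - Biceps, Muscle - Soleus and WholeBlood, with 87 libraries. Liver, Adrenal, Testicle, Ovary and Uterus, with 32 libraries, were put in neither class and entered the tests of single tissues. The libraries were made from bulk tissue RNA, so fewer epithelial cells and less of a miRNA in each such cell cannot be told apart.

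Of the 458 deposited runs, 14 repeat runs of a lane were set aside. Library totals ran from 376401 to 17725805 counts with a median of 4816409, so that 3 counts, the limit that a count of 0 allows, stood for 0.169 to 7.97 CPM. This limit covers counting error only. The 14 names held 3138903 counts in the libraries used, 0.312% of all counts.

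A set of 10 libraries was left out because the tissue markers in them went against their labels. Duodenum rats 2, 4, 7 and 11 held the intestinal markers miR-215 and miR-194-5p at a sum of 65.8 to 139 CPM. Of these 4, 3 held the neuronal marker sum at 34352 to 51310 CPM, and rat 11 held it at 32.0 CPM. Their 5 3p strands were at 0 to 3.28 CPM. Member levels in left-out libraries are given as a description only, since the members are what is compared. Adrenal rat 8, Ovary rat 11, Uterus rat 8 and Hippocampus rat 6 held the same intestinal markers at a sum of 222678 to 286566 CPM. Their miR-200b-3p was at 3880 to 4285 CPM. Hippocampus rats 2 and 7 held the smooth muscle markers miR-143-3p and miR-145-5p at 629331 and 417750 CPM. With all 10 duodenum libraries the mean of miR-200a-3p there was 589.8 and not 983 CPM. With all libraries, the direction of Adrenal against the other tissues turned for each 3p strand, as given beside that result.

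The runs of lane 8 of flow cell C2BUMACXX also stood apart. In these 14 runs of 14 libraries, 53.0% of the 160447 member counts were on sequences with an untemplated base added before the 5′ end, against 0.00112% in the 444 other runs. Among the 7 of these runs with at least 1000 member counts the share was 52.3 to 55.0%, and the other run of each of those 7 libraries held 0%. Member levels were taken from all runs used, of which the lane held 4.94% of member counts, as were the most counted sequences shown next with their shares, whereas the tissue comparisons of 5′ ends, 3′ ends and lengths are reported without the lane, a choice made after seeing the data.

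The most counted sequences of the 5 3p strands are shown with the seed in capitals, since the seeds part the family in 2 and the remaining bases set how well reads can be told apart:
miR-200b-3p: tAATACTGcctggtaatgatgac
miR-200c-3p: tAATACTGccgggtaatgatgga
miR-429: tAATACTGtctggtaatgccg
miR-200a-3p: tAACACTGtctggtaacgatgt
miR-141-3p: tAACACTGtctggtaaagatg
Counted from 1 at the 5′ end, the seed of the first 3 strands differed from that of the last 2 by T4C. The most counted sequence held 51.4% of the counts of miR-200b-3p, 53.9% of miR-200c-3p, 56.6% of miR-429, 32.7% of miR-200a-3p and 85.3% of miR-141-3p. miR-200a-3p and miR-141-3p shared 20 of 21 bases and differed by C17A, although their genes lie in different clusters. miR-200b-3p differed from miR-200c-3p by T11G, A22G and C23A, and from miR-429 by C9T, A19C and T20C.

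The 5p strands had other seeds, again shown in capitals:
miR-200b-5p: cATCTTACtgggcagcattgga
miR-200a-5p: cATCTTACcggacagtgctgga
miR-141-5p: cATCTTCCagtgcagtgttgga
miR-200c-5p: cGTCTTACccagcagtgtttgg
miR-200a-5p and miR-200b-5p had the same seed. The most counted miR-141-5p sequence, with 52.9% of the counts of that strand, started 2 bases after the RefSeq mature sequence, uCCAUCUUccagugcaguguug, so these reads had another seed than the annotated one.

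The hairpins of RefSeq (build GRCr8, all on the minus strand) are shown with the arms that held the most counted sequences in capitals, since the balance of the 2 arms is compared further on:
miR-141 at chr4:159209525-159209618: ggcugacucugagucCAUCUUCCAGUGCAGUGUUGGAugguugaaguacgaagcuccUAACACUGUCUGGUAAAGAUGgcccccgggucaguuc
miR-200c at chr4:159209965-159210033: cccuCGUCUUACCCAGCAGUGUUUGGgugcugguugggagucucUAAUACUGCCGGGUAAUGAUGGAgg
miR-200b at chr5:171931495-171931589: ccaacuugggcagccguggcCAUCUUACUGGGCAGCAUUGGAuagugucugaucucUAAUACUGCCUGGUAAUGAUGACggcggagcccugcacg
miR-200a at chr5:171930717-171930805: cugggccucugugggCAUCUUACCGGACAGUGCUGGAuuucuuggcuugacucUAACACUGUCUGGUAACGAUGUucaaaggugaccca
miR-429 at chr5:171929682-171929766: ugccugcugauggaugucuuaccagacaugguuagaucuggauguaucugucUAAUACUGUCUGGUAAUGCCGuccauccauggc
The miR-141 and miR-200c hairpins were 346 bases apart and spanned 509 bases. The miR-200b and miR-200a hairpins were 689 bases apart, the miR-200a and miR-429 hairpins 950 bases, and the 3 together spanned 1908 bases.

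The family was most abundant in the pancreas, where the 14 names summed to 24285 ± 2028 CPM (n = 10), 2.43% of all counts. The sum was 9460 ± 1008 CPM in the duodenum (n = 6), 8959 ± 1170.2 in the ileum and 6637 ± 1119 in the jejunum. The kidney labels followed with 5987 ± 517 CPM in Medulla, 4892 ± 495 in Cortex and 4802 ± 879.7 in Kidney, and glandular stomach held 5416 ± 1789.5 CPM (n = 10 each). Ovary held 2721 ± 271 CPM (n = 4), Uterus 832 ± 395 (n = 4), non-glandular stomach 641 ± 268 (n = 10), Liver 442 ± 126 (n = 10) and Testicle 176 ± 57.5 (n = 5). In the remaining tissues the mean sum ran from 40.8 CPM in Heart down to 4.64 CPM in WholeBlood, and in Adrenal it was 10.4 CPM (n = 9).

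**Figure D1:**
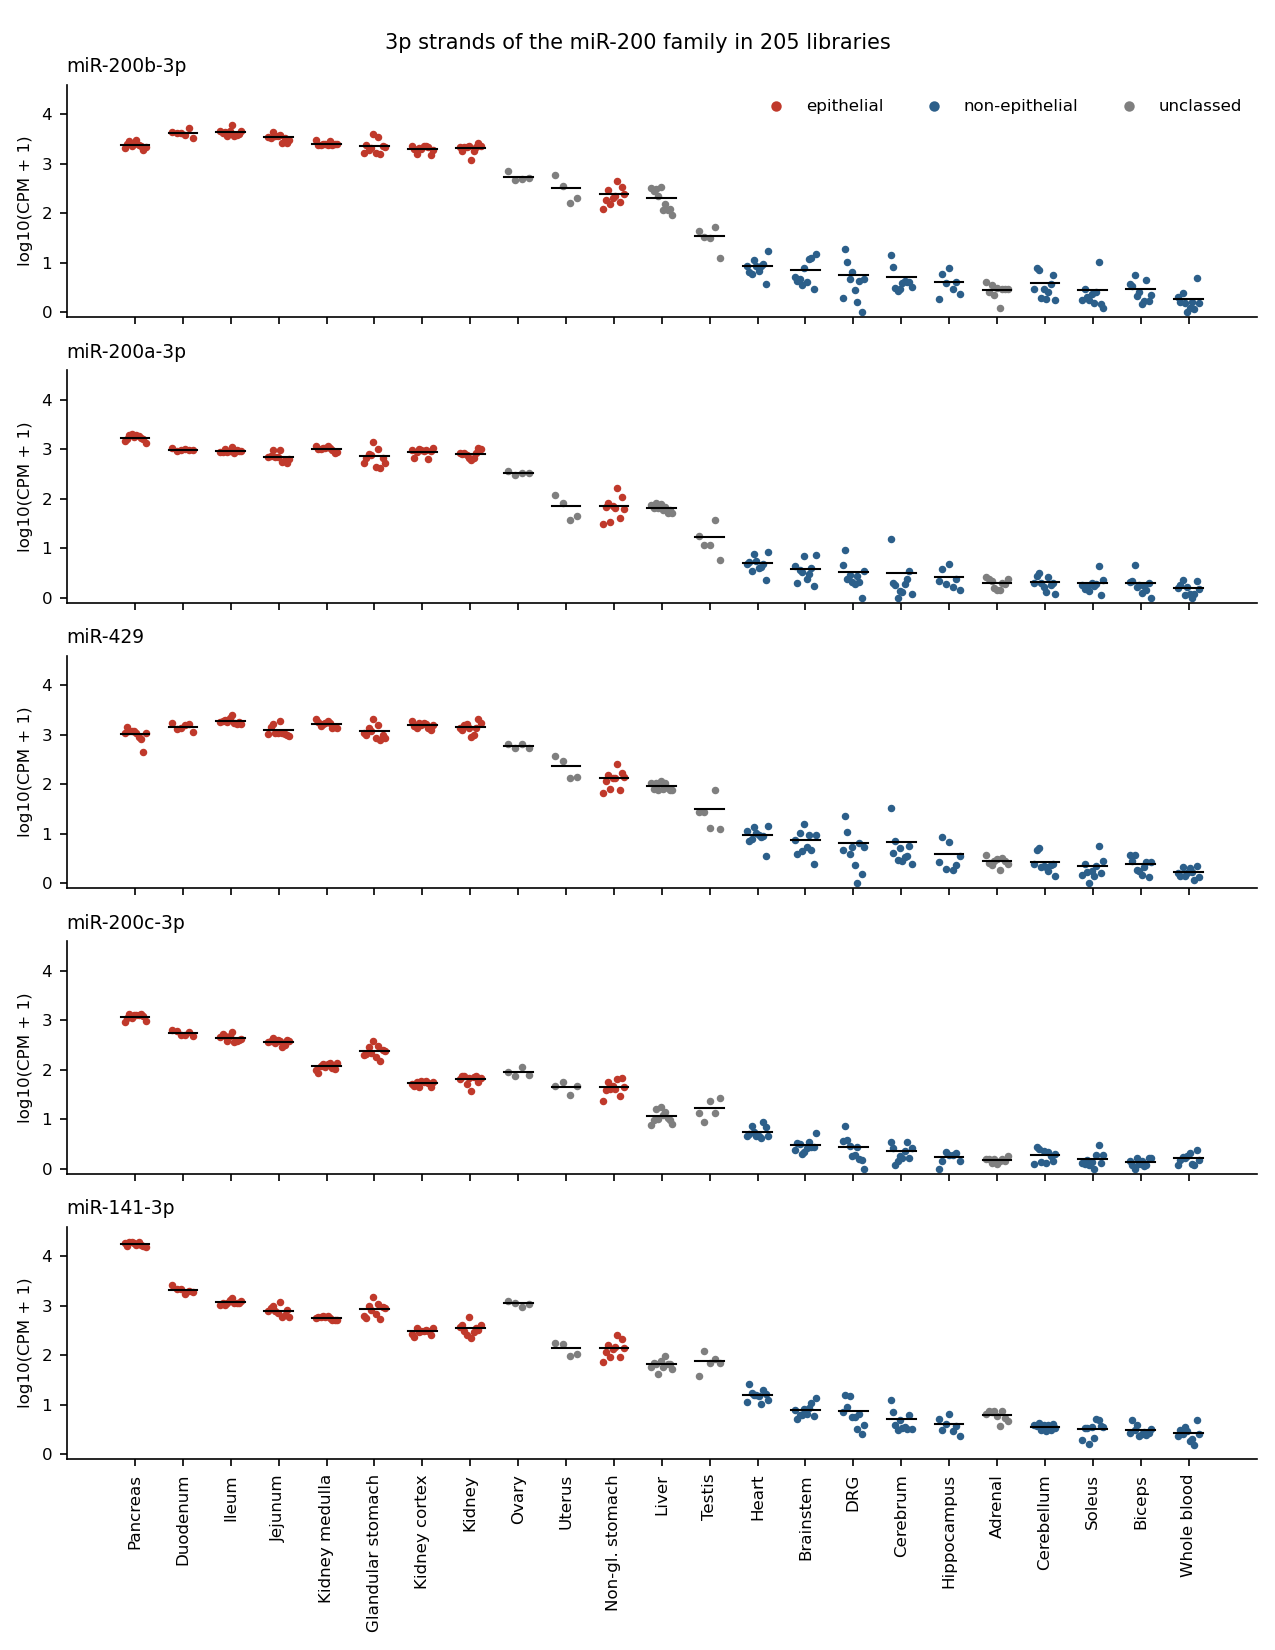
Level of the 5 3p strands of the miR-200 family as log10(CPM + 1) in each library used, by tissue, where points are libraries coloured by class and bars stand at the tissue mean. Among these libraries, with the left-out ones not drawn, the epithelial ones sit above every non-epithelial one for each strand. miR-141-3p in Pancreas, at 15548 to 19750 CPM, sits above all other tissues.

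The strand that set the pancreas apart was miR-141-3p, of the miR-200c cluster. It ranged from 15548 to 19750 CPM in the 10 pancreas libraries, with a median of 17628 and a mean of 17730 ± 1551. Its next level was 2109 ± 309.5 CPM in the duodenum (1755 to 2655, median 2087, n = 6), so every pancreas library lay above every library of any other tissue. It was 1181 ± 127 CPM in the ileum, 872 ± 285 in glandular stomach, 804 ± 180.2 in the jejunum, 569 ± 44.8 in Medulla, 356 ± 101 in Kidney and 303 ± 38.7 in Cortex (n = 10 each). Non-glandular stomach was the lowest epithelial tissue at 142 ± 57.7 CPM (n = 10). The 4 ovary libraries held 942, 1109, 1162 and 1257 CPM of miR-141-3p, in the range of the small intestine, and the 4 uterus libraries held 94.5, 104, 172 and 176 CPM. Testicle held 76.1 ± 30.99 CPM (n = 5) on 18 to 46 counts in a library, and Liver 64.5 ± 14.5 CPM (n = 10). Heart led the non-epithelial tissues with 15.1 ± 4.64 CPM (9.41 to 25.3, median 14.8, n = 10), and WholeBlood was last with 1.76 ± 1.00 CPM (n = 10).

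miR-200c-3p, its cluster partner, was also highest in the pancreas but at a far lower level. The pancreas libraries held 930 to 1358 CPM, median 1224, with a mean of 1174 ± 149. The duodenum followed with 550.2 ± 67.8 CPM (n = 6), the ileum with 448 ± 68.2, the jejunum with 371 ± 44.3 and glandular stomach with 241 ± 67.0 (n = 10 each). Medulla held 116 ± 17.5 CPM, Kidney 63.5 ± 12.8 and Cortex 52.7 ± 5.70 (n = 10 each). The ovary libraries were at 74.6, 76.5, 88.3 and 113 CPM, and non-glandular stomach at 44.6 ± 14.3 CPM (n = 10), close to the uterus libraries at 30.6, 45.9, 46.9 and 56.8 CPM. Liver held 10.7 ± 3.41 CPM and Heart 4.66 ± 1.48 CPM (n = 10 each), and Testicle 16.3 ± 7.67 CPM (n = 5) on 3 to 15 counts in a library.

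The strands of the miR-200b cluster were spread more evenly over the epithelial tissues. miR-200b-3p was at 4345 ± 718 CPM in the ileum (3666 to 6082, median 4249, n = 10), 4164 ± 627 in the duodenum (n = 6) and 3408 ± 536 in the jejunum (n = 10). Medulla held 2542 ± 250.5 CPM, the pancreas 2389.8 ± 329 (1881 to 2948, median 2357), glandular stomach 2304 ± 795, Kidney 2066 ± 390.2 and Cortex 1995 ± 281.5 (n = 10 each). The pancreas thus stood in the midst of the gut and kidney tissues for this strand. Below them stood the ovary libraries at 479, 489, 524 and 711 CPM, the uterus libraries at 160.2, 205.4, 356 and 587 CPM, non-glandular stomach at 238 ± 99.0 CPM and Liver at 207 ± 98.7 CPM (n = 10 each). Testicle held 33.8 ± 15.0 CPM (n = 5), Heart 7.64 ± 3.58 and WholeBlood 0.896 ± 1.12 (n = 10 each).

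miR-429 had the same broad plateau. It was at 1910 ± 264 CPM in the ileum (1664 to 2504, median 1834), 1651 ± 232 in Medulla, 1561 ± 189 in Cortex, 1465 ± 220.3 in the duodenum, 1429 ± 339 in Kidney, 1223 ± 327 in the jejunum and 1177 ± 394 in glandular stomach (n = 6 in the duodenum and 10 elsewhere). The pancreas came only after these, with 1039 ± 272 CPM (448 to 1436, median 1074, n = 10). The ovary libraries held 534, 552, 638 and 650.0 CPM of miR-429, and the uterus libraries 133, 141.3, 296 and 369 CPM.

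miR-200a-3p shared the plateau but led in the pancreas, with 1719 ± 232 CPM (1324 to 2056, median 1720, n = 10). Medulla held 1021 ± 96.5 CPM, the duodenum 983 ± 46.5 (n = 6), the ileum 932 ± 73.4, Cortex 896 ± 133, Kidney 813 ± 144, glandular stomach 725 ± 296 and the jejunum 711 ± 149 (n = 10 each otherwise). The ovary libraries held 297, 326, 330.3 and 366 CPM of miR-200a-3p, non-glandular stomach 71.6 ± 39.3 CPM, the uterus libraries 36.9, 44.6, 80.7 and 117 CPM, and Liver 64.5 ± 10.7 CPM. The lowest pancreas library lay above the highest Medulla library, at 1157 CPM, and below the highest of glandular stomach, at 1379.8 CPM.

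The 5p strands were low throughout. miR-141-5p was highest in the pancreas at 85.7 ± 13.3 CPM, then in the duodenum at 63.5 ± 7.54 CPM. miR-200a-5p was highest in the duodenum at 79.1 ± 5.87 CPM, then in the ileum at 58.4 ± 7.18 CPM, with the pancreas at 38.6 ± 6.41 CPM. miR-200b-5p was highest in the duodenum at 30.98 ± 5.75 CPM, then in Cortex at 24.0 ± 3.56 CPM. miR-200c-5p, with 453 counts in all, was at 3.37 ± 0.996 CPM in the pancreas and 3.09 CPM in the duodenum (n = 10 in each tissue named and 6 in the duodenum).

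The low level of non-glandular stomach, and the spread of glandular stomach, stood beside other markers. The smooth muscle markers (2 of 2 found) summed to 772861 to 881388 CPM in non-glandular stomach and 682360 to 798082 CPM in glandular stomach, against 13796 to 22589 CPM in the pancreas. miR-205, a miRNA of squamous epithelium, was at 579 to 1383 CPM in non-glandular stomach and 190 to 949 CPM in glandular stomach. The 3 acinar markers miR-216a-5p, miR-216b-5p and miR-217-5p summed to 8114 to 15689 CPM in the pancreas and to 633 to 1405 CPM in the 6 duodenum libraries. The RNA integrity number was lowest in the pancreas, with a mean of 6.12 (4.9 to 6.8) against means of 7.2 to 8.84 in the other tissues that carry one. The part of these in the levels was not tested.

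Every single-name member was higher in the epithelial class. The fitted epithelial minus non-epithelial difference, on the log2 scale, was 10.58 for miR-200b-3p (SE 0.33), 9.97 for miR-200a-3p (SE 0.32), 9.75 for miR-429 (SE 0.31), 8.94 for miR-141-3p (SE 0.23) and 8.66 for miR-200c-3p (SE 0.24). Each SE of an edgeR difference is the difference over the square root of the F statistic of its test, an approximation. The 3 strands of the miR-200b cluster thus had larger fitted differences than the 2 of the miR-200c cluster, a contrast that was not itself tested. Of the 5p strands, miR-200a-5p differed by 9.88 (SE 0.26), miR-200b-5p by 9.17 (SE 0.19), miR-141-5p by 8.36 (SE 0.27) and miR-200c-5p by 5.46 (SE 0.31). Non-epithelial counts of these were mostly 0, in 64, 74, 54 and 83 of the 87 libraries in that order, so their fitted differences depend on the prior count. All 9 single names, and the 2 composite names that could be fitted, were called higher by edgeR's quasi-likelihood test with Benjamini-Hochberg adjustment. The edgeR adjusted p was between 7.01e-88 and 1.63e-71 for the 5 3p strands. The 5p strands and these composites stayed at or below 0.944 CPM in every non-epithelial library. They passed the filter on low counts through other tissues, so their calls were largely set by it and are not counted as support. The p-values rest on the spread between samples of a tissue. Spread between the tissues of a class has no part in them, and several epithelial labels were of the kidney. Over all 1612 names tested, 35.9% were called higher and 15.2% lower, and the median log2 difference was 0.38 against 9.17 over the 9 single names.

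Among the libraries used, the 2 classes did not overlap for 7 of the 9 single names. The lowest epithelial library held 71.9 CPM of miR-141-3p and the highest non-epithelial library 25.3 CPM. For miR-200c-3p these were 23.0 and 7.69 CPM, for miR-200b-3p 122 and 17.96, for miR-200a-3p 29.6 and 14.5, and for miR-429 66.5 and 31.6. They were 2.23 and 0.943 CPM for miR-200a-5p and 0.830 and 0.459 CPM for miR-200b-5p. miR-141-5p and miR-200c-5p overlapped. With the left-out libraries under their labels, the classes overlapped for the other 7 names too. For miR-141-3p, the left-out Duodenum rat 7 held 0 CPM and the left-out Hippocampus rat 6 held 2976 CPM. The tissues in neither class were not part of this comparison. The share of all names without overlap was not determined, so the lack of overlap is not read as particular to the family. The median epithelial library held 2380.3 CPM of miR-200b-3p against 2.53 CPM in the median non-epithelial library, and 623 against 2.89 CPM of miR-141-3p. Under 25 alternatives to the fit, each of the 224 recomputed differences was positive and past the threshold, from 4.62 to 10.76 on the log2 scale. The scaling did move the split over all names, from 70.3% of calls higher to 44.8% with TMM factors, 47.2% with DESeq2 and 26.9% with library totals alone, with medians of all names of -0.10, 0.13 and -0.49.

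Against the mean of the other 22 tissues, single tissues showed the same division. Of the 207 pairs of a single-name member and a tissue, 104 were called higher and 68 lower (edgeR quasi-likelihood test, Benjamini-Hochberg adjustment over all names), against 24.4% higher and 12.9% lower over all names and tissues. In the 9 epithelial tissues each of the 9 single names was called higher. The 3p strands were called lower in all 9 non-epithelial tissues, in Adrenal and in Testicle.

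In the pancreas the log2 difference from the other tissues was 8.66 for miR-141-3p and 6.80 for miR-200c-3p, against 6.15 for miR-200a-3p, 5.29 for miR-200b-3p and 4.602 for miR-429. The order ran the other way in Cortex, with 2.50 for miR-141-3p and 2.10 for miR-200c-3p against 5.00 to 5.15 for the strands of the miR-200b cluster. Ovary and Uterus, which were in neither class, had all 5 3p strands called higher, by 2.32 to 3.84 in Ovary and 2.32 to 3.34 in Uterus. Testicle was lower by 1.61 to 3.09 for the 5 strands, but with library totals alone miR-200c-3p and miR-141-3p turned to 0.24 and 0.30 there. Adrenal was lower in all 5, at -4.05 for miR-141-3p and -5.93 for miR-200b-3p, and with the left-out rat 8 among all libraries it turned to 0.52 to 1.98.

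In Liver the strands differed in direction and in how far the scaling decided the call. miR-200b-3p was higher there by 1.88, and stayed called with TMM factors (0.87), DESeq2 (0.83) and library totals alone (1.44), but not with all libraries (0.98, edgeR adjusted p = 0.146). miR-200a-3p was higher by 1.44 and miR-429 by 1.14, whereas miR-200c-3p differed by -0.05 with adjusted p = 1 (edgeR). miR-141-3p was called higher by 0.46 (edgeR adjusted p = 0.0171), but the sign turned with TMM factors (-0.55), DESeq2 (-0.59) and the rat as a block, a fit without DRG (-0.024, edgeR adjusted p = 1), and the call was lost without replicate 2, 6, 8 or 11 or without the DRG female pool (0.28 to 0.41), so no direction can be given for it. miR-200c-3p was called lower in the liver with TMM factors (-1.02), DESeq2 (-1.06) and the rat as a block (-0.51, edgeR adjusted p = 0.0229). miR-429 lost its call with TMM factors (0.12) and DESeq2 (0.09), and miR-200a-3p with TMM factors (0.45).

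Ordering the 23 tissues by mean CPM gives 22 neighbouring pairs for each 3p strand, and most neighbours were not called different. The order was taken from the same libraries as the tests, so the p-values of the steps do not allow for that choice. Of the 110 pairs, 36 were called different (edgeR, Benjamini-Hochberg adjustment), near the 29.8% of all names over the same pairs. The libraries of 98 pairs overlapped. Upper-quartile factors ran from 0.172 in WholeBlood to 3.93 in Brainstem, and the fitted sign was opposite to that of the CPM in 45 pairs, 10 of them called. With library totals alone no sign was opposite and 26 pairs differed. Under both scalings with the sign of the CPM, 15 pairs differed. The share over all names was not determined for these 2 counts, so neither is read as particular to the family.

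At the top of the order, the step from pancreas to duodenum was 2.98 on the log2 scale for miR-141-3p (SE 0.32, edgeR adjusted p = 1.37e-15), with no overlap of libraries. For miR-200c-3p that step was 0.98 (SE 0.30, edgeR adjusted p = 0.00817), again without overlap. The miR-200c-3p step lost its call with no filter on low counts (0.98, adjusted p = 0.0670) and with all libraries (1.74, adjusted p = 0.0564). For miR-200a-3p the step from pancreas to Medulla, 0.41, was not called (edgeR adjusted p = 0.366), but it was with library totals alone (0.75, edgeR adjusted p = 0.0434) and with DESeq2 (0.92). Among the 8 tissues of the miR-200b-3p plateau no neighbouring pair was called, although DESeq2 called the pancreas lower than glandular stomach (-0.71, adjusted p = 0.0288), and the step down from Cortex to Ovary was 2.48 (SE 0.49, edgeR adjusted p = 1.12e-05). For miR-429 none was called from the ileum to glandular stomach, and the step from there to the pancreas, 0.86 on the log2 scale, was called (edgeR adjusted p = 0.0246), but the libraries overlapped and with library totals alone the step was 0.18 and not called (edgeR adjusted p = 0.669). The jejunum stood above the ovary by 2.37 for miR-200a-3p (SE 0.49). With library totals alone that step was 1.11, and the Cortex to Ovary step of miR-200b-3p was 1.86. Lower in the order, Liver stood above Testicle by 4.09 for miR-200a-3p, 4.76 for miR-200b-3p and 3.66 for miR-429. With library totals alone these 3 steps were 2.01, 2.61 and 1.55, and the miR-429 libraries overlapped. Testicle had a mean upper-quartile factor of 3.81 and library totals of 376401 to 653651 counts. Heart stood above Brainstem by 2.61 to 3.50 for the 5 strands. The Heart step held with library totals alone for miR-141-3p (1.11) and miR-200c-3p (1.21).

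The 2 clusters were balanced differently in the pancreas than in the other epithelial tissues. The cluster balance was the log2 ratio of miR-200c-3p and miR-141-3p counts to miR-200b-3p, miR-200a-3p and miR-429 counts within a library, so that it does not depend on the scaling of libraries. In the 10 pancreas libraries it ran from 1.61 to 2.16, with a median of 1.88 and a mean of 1.88 ± 0.17. This is a 3.69-fold excess of the summed counts of the miR-200c cluster, most of them miR-141-3p. miR-200c-3p itself made up 4.89% of the 5 strands there, below miR-200b-3p (9.94%) and miR-200a-3p (7.13%). The 6 duodenum libraries held -1.57 to -1.10, mean -1.32 ± 0.19, and non-glandular stomach -1.42 to -1.05, mean -1.22 ± 0.10 (n = 10). Glandular stomach was at -1.91 ± 0.23, the ileum at -2.14 ± 0.10, the jejunum at -2.19 ± 0.17, Medulla at -2.93 ± 0.14, Kidney at -3.37 ± 0.36 and Cortex at -3.65 ± 0.22 (n = 10 each). Each pancreas library lay above each library of the 8 other epithelial tissues.

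The pancreas balance exceeded that of the other 8 epithelial tissues by 3.10, against non-glandular stomach, to 5.53, against Cortex. All 8 differences passed a two-sided permutation test with 100000 resamples, with Benjamini-Hochberg adjusted p = 2.29e-05, the smallest these permutations can give, and for the duodenum, where n = 6 and the test was exact, adjusted p = 0.000125. All 8 calls held with the rat as a block (adjusted permutation p from 0.00223 to 0.0312). The authors had already listed miR-141-3p and miR-200c-3p as enriched in the pancreas from these rats. The p-values therefore do not allow for the choice of the pancreas as the reference. Of the tissues in neither class, Ovary was at -0.29 ± 0.16 (n = 4), between the pancreas and the other epithelial tissues, Uterus at -1.68 ± 0.41 (n = 4) and Liver at -2.22 ± 0.50 (n = 10). In the non-epithelial tissues the median library held 41 counts of the 5 strands, and their balances are not compared. The integrity number of the pancreas RNA was the lowest, and its part in the balance was not tested.

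**Figure D2:**
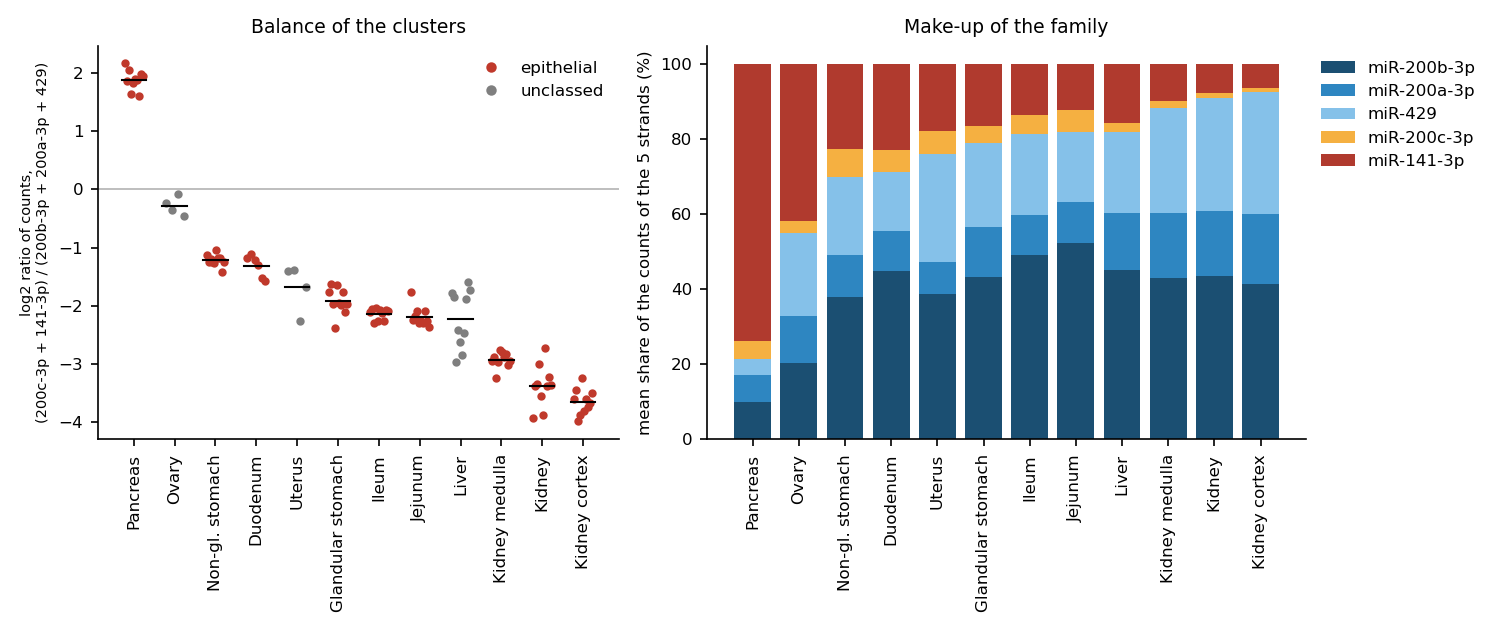
Cluster balance, the log2 ratio of miR-200c-3p plus miR-141-3p counts to miR-200b-3p plus miR-200a-3p plus miR-429 counts, in each library of the epithelial tissues, Ovary, Uterus and Liver (left, bars at the mean), and the mean percent of each of the 5 strands among their summed counts (right). The pancreas libraries, at 1.61 to 2.16, sit above 0 and above all others drawn, and miR-141-3p fills 73.7% of the pancreas column against 6.35% of that of Cortex.

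miR-141-3p was the main strand of the pancreas, and the ratios of strands within a cluster also varied between tissues. miR-141-3p made up 73.7% of the 5 3p strands in the pancreas, 41.7% in the ovary, and 6.35 to 9.68% in the 3 kidney labels. The ratio of miR-141-3p to miR-200c-3p had a geometric mean of 15.2 in the pancreas (12.4 to 19.8) and 12.8 in the ovary (8.35 to 15.6), against 2.13 in the jejunum, 2.65 in the ileum, 3.82 in the duodenum and 4.94 to 5.73 in the kidney labels. Within the other cluster, the ratio of miR-200b-3p to miR-200a-3p was 1.39 in the pancreas and 1.65 in the ovary, 2.23 to 2.53 in the kidney labels, and 3.24 to 4.83 in the gut labels. miR-429 stood at 0.585 of miR-200a-3p in the pancreas (0.282 to 0.912), whereas in the other 8 epithelial tissues the ratio was 1.48 to 2.04. These ratios were not tested apart from the cluster balance. Ligation and amplification differ between sequences, so a ratio of 2 strands is compared here between tissues and does not give their molar ratio.

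The balance of the 2 arms of a hairpin also differed. The arm balance was the log2 ratio of 5p to 3p counts of a hairpin within a library. For miR-141 it was -7.70 ± 0.27 in the pancreas (-8.32 to -7.39, n = 10), so that 3p counts outweighed 5p counts the most there. It was -4.30 ± 0.21 in the jejunum, -4.51 ± 0.20 in the ileum, -5.05 ± 0.23 in the duodenum (n = 6), -5.82 ± 0.35 in Kidney, -5.73 ± 0.31 in Medulla and -6.51 ± 1.39 in Cortex (n = 10 otherwise). The pancreas was lower than each of the 8 other epithelial tissues, by 1.19 in Cortex up to 3.40 in the jejunum, and did not overlap with 7 of them. Adjusted permutation p was 4.57e-05 for 6 of these, and for the duodenum the exact adjusted p was 0.000235. Cortex overlapped, since its rat 10 held no miR-141-5p count (-10.3), with adjusted permutation p = 0.0176. Without replicate 10 the Cortex difference was -1.64, and with the rat as a block its adjusted permutation p was 0.0521.

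miR-200a moved the same way by less. Its arm balance was -5.48 ± 0.21 in the pancreas (-5.90 to -5.14, n = 10) and between -4.42 ± 0.15 in Medulla and -3.63 ± 0.12 in the duodenum (n = 6). The differences ran from -1.06 to -1.85, none of the 8 tissues overlapped with the pancreas, and adjusted permutation p was at most 0.000235. miR-200b did not follow. Its arm balance of -6.71 ± 0.36 in the pancreas was above that of the ileum by 0.86, without overlap, of the jejunum by 0.76, of the duodenum by 0.36 and of Medulla by 0.34, with adjusted permutation p of 4.57e-05, 0.00096, 0.0468 and 0.0223. The differences from Kidney (-0.06), glandular stomach (0.09), Cortex (-0.34) and non-glandular stomach (0.29) were not called. The duodenum call was lost without replicate 4, 5, 6, 7, 8, 9 or 10 (0.28 to 0.39) and that of Medulla without replicate 4, 7, 9 or 10 (0.27 to 0.31). With the rat as a block, the duodenum lost its call (adjusted permutation p = 0.0741), and Cortex was called lower and non-glandular stomach higher (both 0.0455). miR-200c, with few 5p counts, was called lower in the pancreas against 5 of the 8 tissues. miR-429 had no member 5p strand, since its only 5p entry, a predicted 5p name joined to the miR-429 precursor with 19 counts, was left out with the precursor names.

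**Figure D3:**
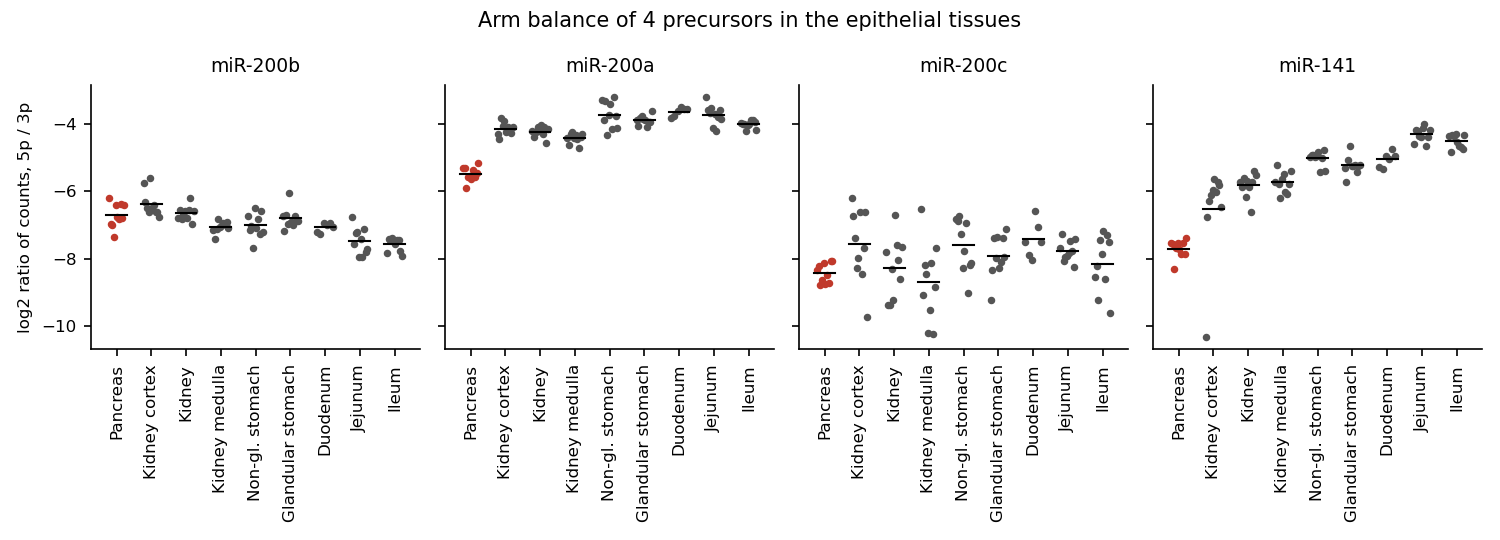
Arm balance, the log2 ratio of 5p to 3p counts of a hairpin, in each library of the epithelial tissues, with bars at the mean, for the 4 hairpins with both arms in the table. Pancreas libraries lie lowest for miR-200a, at -5.90 to -5.14, and near the bottom for miR-141, at -8.32 to -7.39, with 1 Cortex library at -10.3 below them, and lie among the other tissues for miR-200b.

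The 5′ ends of 2 strands also differed in the pancreas, in opposite directions. Without lane 8, 12.2 ± 1.06% of miR-200b-3p counts in the pancreas (10.3 to 13.6%, n = 10) started at another base than the most counted sequence. In the other 8 epithelial tissues the mean was 4.26 to 5.01%, and no library of theirs reached those of the pancreas. The differences were 7.15 to 7.90 points, with adjusted permutation p = 9.14e-05 for 7 tissues and, for the duodenum (n = 6), exact adjusted p = 0.000444. With the rat as a block the duodenum, where 6 rats are paired, lost its call (adjusted permutation p = 0.0741) and the other 7 kept theirs. With 6 pairs few rearrangements exist, so the blocked test has little power there.

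Most of these miR-200b-3p reads lacked the first base, which moves the seed by 1. They are shown against the usual start, with the seed of each in capitals:
usual start: tAATACTGcctggtaatgatgac
start 1 base later: aATACTGCctggtaatgatgact
The sequence that starts 1 base later held 8.62 ± 0.676% of miR-200b-3p counts in the pancreas (n = 10), against means of 2.36% in Cortex to 3.57% in the ileum. Its last base is not that of the hairpin. It held 6.71 ± 0.919% in Liver (n = 10), 5.43 ± 1.41% in Ovary (n = 4) and 3.17 ± 0.281% in Uterus (n = 4), so the pancreas was not alone in its excess. The whole share of shifted miR-200b-3p ends was 9.29 ± 1.14% in Liver and 8.37 ± 1.65% in Ovary.

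For miR-141-3p, the pancreas held fewer shifted 5′ ends. They made up 0.493 ± 0.115% (0.401 to 0.799%, n = 10), against means of 1.33% in the duodenum to 2.79% in the ileum. None of the 8 other epithelial tissues overlapped with the pancreas, adjusted permutation p was 9.14e-05 for 7 of them, and for the duodenum (n = 6) exact adjusted p = 0.000444. With the rat as a block only the duodenum lost its call (adjusted permutation p = 0.0741), where the blocked test again had few rearrangements and little power. The main shifted sequence started 1 base earlier, on the base that precedes the usual start in the hairpin:
usual start: tAACACTGtctggtaaagatg
start 1 base earlier: cTAACACTgtctggtaaagatg
It held 0.377 ± 0.103% of miR-141-3p counts in the pancreas (n = 10) and 0.748 ± 0.147% in the ovary (n = 4), against 1.04% in the duodenum to 2.28% in the ileum. With lane 8 the differences from Cortex, Jejunum and Stomach_Non-Glandular turned to 3.10, 2.59 and 2.85 percentage points, none of them called, and pancreas rat 5 then held 47.0% shifted ends.

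**Figure D4:**
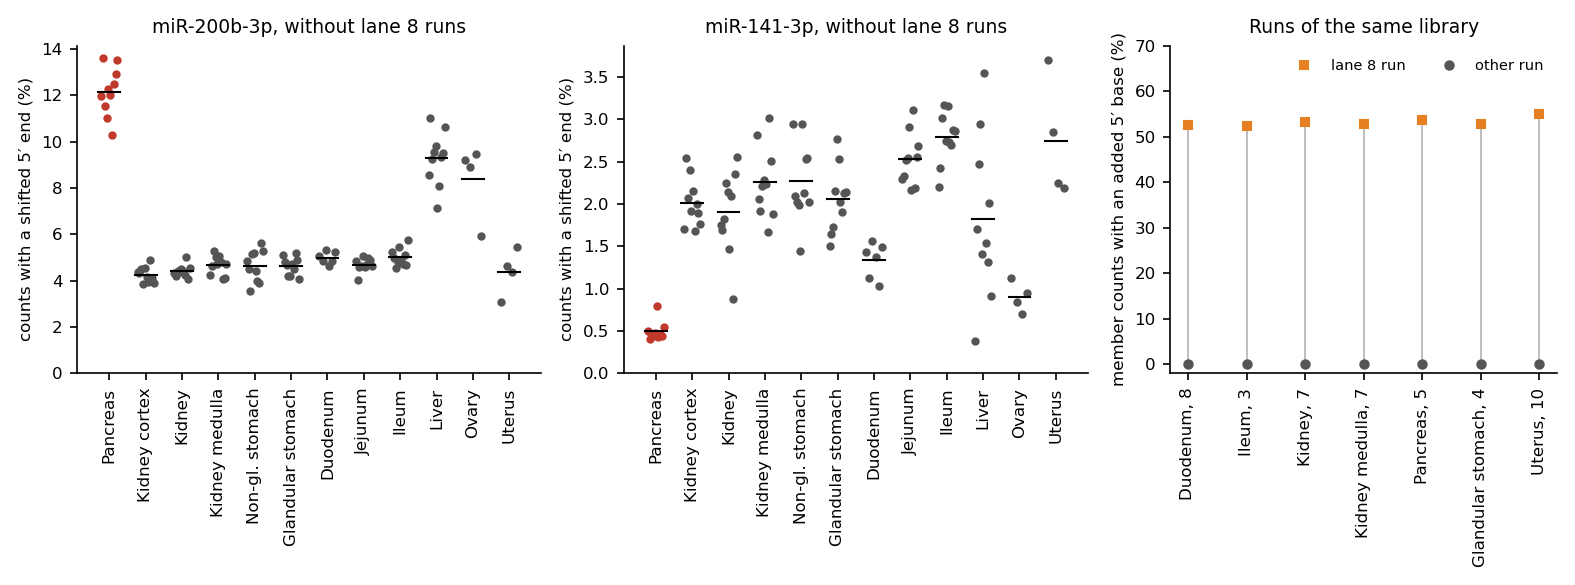
Percent of counts with a shifted 5′ end for miR-200b-3p and miR-141-3p in each library of the epithelial tissues, Liver, Ovary and Uterus without lane 8, with bars at the mean, and the percent of member counts with an untemplated 5′ base in lane 8 and in the other run of 7 libraries. Pancreas libraries lie at 10.3 to 13.6% for miR-200b-3p and at 0.401 to 0.799% for miR-141-3p, apart from the other 8 epithelial tissues, and lane 8 lies at 52.3 to 55.0% against 0%.

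The 3′ ends differed as well. Without lane 8, the most counted miR-200b-3p sequence held 37.0 ± 2.24% of its counts in the pancreas (n = 10), against means of 51.3 to 58.8% in the other epithelial tissues, with no overlap in any of the 8 and adjusted permutation p at most 0.000205. A last base T that does not match the hairpin was on 36.5 ± 1.77% of miR-200b-3p counts in the pancreas, 45.5 ± 6.84% in Liver, 30.8 ± 3.95% in Ovary (n = 4), and between 17.7 ± 0.879% in Cortex and 29.2 ± 1.82% in the jejunum (n = 10 otherwise). For miR-141-3p the most counted sequence held 91.5 ± 1.61% in the pancreas against 75.8 to 86.1% elsewhere, and for miR-429 68.1 ± 3.91% against 52.2 to 60.8%. All 8 differences of each were called, with adjusted permutation p at most 0.000305, with overlap in 3 tissues for miR-141-3p and 4 for miR-429. For miR-200c-3p it held 46.1 ± 3.27% against 50.5 to 64.0%, lower in all 8, with overlap in 6 and adjusted permutation p at most 0.0377, while with the rat as a block Cortex lost its call (adjusted permutation p = 0.0545).

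Mean read length was shorter in the pancreas for several strands. Without lane 8, miR-200a-3p had a mean length of 21.70 bases in the pancreas against 21.96 to 22.47 in the other epithelial tissues, miR-200c-3p 22.35 against 22.57 to 22.80, and miR-429 21.21 against 21.35 to 21.45. Each of the 3 was shorter in all 8 comparisons (adjusted permutation p at most 0.000235), with overlap in 1 tissue each. For miR-200a-3p the most counted sequence itself differed between tissues, by its 3′ end:
in the kidney labels and pancreas: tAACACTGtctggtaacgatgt
in the gut labels: tAACACTGtctggtaacgatgtt
in the ovary: tAACACTGtctggtaacgatg
The longer form held 46.6% of miR-200a-3p counts in the duodenum, 44.9% in the ileum, 50.7% in the jejunum, 39.4% in glandular and 34.6% in non-glandular stomach, and the shortest form held 35.1% in the ovary. The low integrity number of the pancreas RNA stood beside these lengths, and its part in them was not tested.

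Composite names held 0.179% of member counts. The reads named miR-141-3p;miR-200a-3p were at 71.8 ± 14.6 CPM in the pancreas (n = 10) and 13.7 CPM in the ovary (n = 4), and 81.4% of their counts were on tAACACTGtctggtaaagatgt, which is 1 base away from each parent. Those named miR-200b-3p;miR-200c-3p were at 8.68 CPM in the pancreas, and 51.6% of their counts were on tAATACTGccgggtaatgatga. Those named miR-200b-3p;miR-429 were at 1.78 CPM in the ovary (n = 4), 0.863 CPM in Medulla (n = 10) and in no count of the 87 non-epithelial libraries, and 191 of their 214 counts were on the short tAATACTGtctggtaatga. The remaining 2 composite names held 3 counts and 1 count.

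No difference between males and females was called by edgeR. Of 171 pairs of a single-name member and a tissue present in both sexes, edgeR's quasi-likelihood test called 0, with 12 at an unadjusted p below 0.05, and over all names 0.872% of such pairs were called. The nearest was miR-429 in Cerebrum, with a female minus male log2 difference of -1.68 and edgeR adjusted p = 0.0602. DESeq2 called 2 pairs, that pair (-1.68, adjusted p = 0.00169) and miR-200b-3p in Liver (-1.45, adjusted p = 0.00183), with 19 pairs at an unadjusted p below 0.05. In Liver the 5 males held 224, 277, 309.8, 328 and 335 CPM of miR-200b-3p and the 5 females 91.2, 114, 115, 120.3 and 153 CPM, so the sexes did not overlap. This pair is shown because DESeq2 called it, and the share of all pairs without overlap was not determined. By edgeR the Liver miR-200b-3p difference was -1.43 (adjusted p = 0.122), and miR-200b-5p had the same sign (-1.31, edgeR adjusted p = 0.427). In Cerebrum, rat 2, a male, held 31.6 CPM of miR-429 against a tissue median of 2.77 CPM.

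A list of other miRNAs known from epithelia gave the wider setting. Of its 28 names in the table, 25 were tested, and 18 were called higher in the epithelial class and 4 lower (edgeR). Over all names 35.9% were called higher and 15.2% lower, so the lower calls of the list were near that share. The median log2 difference of the list was 4.76, below that of each of the 9 single members. miR-375-3p, known from pancreatic islets, was higher by 7.88 and stood at 37202 ± 4851 CPM in the pancreas and 7221 CPM in the duodenum. miR-203a-3p, known from the skin, was higher by 6.40 and was at 1601 ± 212 CPM in the ileum and 1581 CPM in non-glandular stomach. miR-192-5p, known from gut and kidney, was higher by 6.09, and miR-205 by 4.95. miR-182 was higher by 4.79 as well, yet its highest level was 65015 CPM in DRG. The 4 names called lower were the strands of miR-34b and miR-34c, known from ciliated cells and testis, at -0.43 to -1.11, each with its highest level in Testicle.

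Across the 23 tissue means the 5 3p strands ranked the tissues alike, with Spearman's rho of 0.915 to 0.972 between them, as a description of tissues that share rats and libraries. Of the other names that reached 100 CPM in a tissue, the nearest in rank to each of the 5 were miR-203a-3p, with rho of 0.774 to 0.818, and miR-375-3p, with rho of 0.729 to 0.818. The next was miR-92a-1-5p for miR-141-3p and miR-429 (0.714 and 0.690), miR-31a-5p for miR-200b-3p and miR-200c-3p (0.6996 and 0.708) and miR-3559-5p for miR-200a-3p (0.699).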

How the data were processed

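The deposited values were raw counts, which the authors made by trimming reads (cutadapt 1.4.1 per the submitters' processing notes), collapsing them and assigning them to miRNAs at the isomiR and the miR level, with predicted names taken from miRDeep2 alignments to the rat genome RN5. Runs of a library were summed, 14 repeat runs of a lane were set aside, and DRG libraries were summed to 2 pools for fits, leaving 197 samples after the 10 exclusions. The members, lists and exclusions were chosen with earlier results of these data known. edgeR 4.0.16 (R 4.3.3) fitted quasi-likelihood models with a term per tissue to all names, with upper-quartile factors, filterByExpr and Benjamini-Hochberg adjustment over all names of a contrast, at a threshold of 0.05. The fit was also run on simulated counts with the same profile in all tissues apart from set changes. That setting is simpler than these data, so it does not show how the threshold holds here. DESeq2 1.42.0, TMM, library totals, other filters, flow cells and left-out rats were alternatives.

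Balances (pseudocount 0.5 on each count) and isomiR shares (from 20 counts in a library) were compared between the pancreas and each other epithelial tissue by two-sided permutation tests, exact where a group had under 10 rats, with scipy 1.17.1. Beside the members, the names reported were a fixed list of miRNAs known from epithelia and the 3 names nearest in rank to each member that reached 100 CPM in a tissue. Leaving out lane 8 of a flow cell was chosen after seeing the data. Numbers in the labels are rats, so same-numbered samples come from the same animal: the mean correlation of deviations from tissue means was 0.0128 within a rat and 0.00013 between rats over 341 names, and fits with the rat as a block are given where they change a call.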

Additional observations from a re-analysis of the deposited data

Results flagged for a closer look

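An outlying library, by the gap to its nearest neighbour over the whole range of a tissue, was found in 33 of the 142 groups of 4 to 10 libraries examined, among them 18 of the 115 groups of levels. Chance would flag about 1 in 20 such groups only if the values were independent and normal. Several groups rest on few counts and the same library recurs for several strands, so the chance rate here is not known.

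Several of these stood in tissues with few counts of the family. In Cerebrum, rat 2 was the highest for miR-141-3p (11.7 CPM), miR-200a-3p (14.5), miR-200b-3p (13.2) and miR-429 (31.6). In DRG, library 1002 of the male pool was the highest for miR-200a-3p (8.45 CPM), miR-200b-3p (17.96), miR-200c-3p (6.34) and miR-429 (22.2). In Muscle - Soleus, rat 9 was the highest for miR-200a-3p (3.32 CPM), miR-200b-3p (9.33), miR-200c-3p (2.07) and miR-429 (4.77). Single strands stood out in Muscle - Biceps rat 4 (miR-200a-3p, 3.56 CPM), WholeBlood rat 10 (miR-200b-3p, 3.86), Brainstem rat 11 (miR-200c-3p, 4.19) and Testicle rat 5 (miR-429, 76.3). In tissues rich in the family, Kidney rat 6 held 587 CPM of miR-141-3p and Ileum rat 7 held 6082 CPM of miR-200b-3p. The cluster balance stood apart in Jejunum rat 10 (-1.76) and in Medulla rat 2 (-3.24).

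The share of shifted 5′ ends with lane 8 included stood apart in 6 libraries with a run in that lane. For miR-141-3p it was 47.5% in Duodenum rat 8, 49.6% in Ileum rat 3, 49.3% in Kidney rat 7, 51.4% in Medulla rat 7, 47.0% in Pancreas rat 5 and 51.3% in Stomach_Glandular rat 4. For miR-200b-3p it was 42.7% in Duodenum rat 8, 43.0% in Ileum rat 3, 47.0% in Kidney rat 7, 42.7% in Medulla rat 7, 41.9% in Pancreas rat 5 and 46.8% in Stomach_Glandular rat 4. In Jejunum, rat 11 was the lowest for miR-200b-3p at 4.04%.

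Names of precursors of the family, which entered no comparison, held 191 counts over all libraries.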

How the results depend on the processing

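With the rat as a replicate block, the epithelial contrast called 9 of 9 single names, and the block changed no other call of levels or balances recomputed than Liver miR-141-3p (-0.024), Liver miR-200c-3p and the arm balances of miR-141 in Cortex, of miR-200b in 3 tissues and of miR-200c, lower in 3 and not 5 tissues. The 9 single names, the 8 cluster balances and the pairs of a tissue against the rest kept their counts within a factor of 1.5 under the alternatives run. Over all names, 579 were called higher and 245 lower, against 314 and 387 with TMM, 199 and 541 with library totals alone, 464 lower with DESeq2, 315 and 156 with flow cell D1GBMACXX only, and 287 higher with predicted and precursor names left out. Of neighbouring pairs, 59 and not 36 differed with those names left out. Sex pairs called were 1 with library totals alone, 2 with DESeq2, 3 with no filter, 13 with all libraries, 2 with predicted names left out, and 0 to 1 without single rats. Arm pairs higher in the pancreas were 4, 2 in flow cell D1GBMACXX, and 2 to 4 without single rats.

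With all runs, 9 pairs of the most counted share were higher in the pancreas and 25 lower, against 20 and 15 in flow cell D1GBMACXX, 3 higher in other flow cells, 23 higher without lane 8, 2 and 16 with the replicate block, 23 with the replicate block and without lane 8, 21 for templated sequences only, and 3 to 23 without single rats. Shifted ends were higher in 3 pairs and lower in 0 (permutation tests, with all runs), against 9 and 8 in that flow cell, 10 and 17 without lane 8, 8 and 13 with the block as well, 7 and 7 for templated sequences, and 3 to 5 and 0 to 19 without single rats. Mean length was higher in 1 pair (0 in flow cell D1GBMACXX and for templated sequences) and lower in 29, against 49 without lane 8, 18 with the block, 46 with both, and 25 to 49 without single rats.

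Liver miR-141-3p turned from 0.46 to -0.55 with TMM, -0.59 with DESeq2, -0.35 with all libraries and -0.32 in flow cell D1GBMACXX. Testicle turned with library totals alone to 0.24 for miR-200c-3p and 0.30 for miR-141-3p. With all libraries Adrenal turned to 1.47 for miR-200b-3p, 1.21 for miR-200c-3p, 0.52 for miR-429, 1.98 for miR-141-3p and 0.81 for miR-200a-3p, and miR-200b arms against Duodenum to -1.04. Shifted miR-141-3p ends turned without lane 8, with and without the block, to -1.52 points in Cortex, -2.03 in Jejunum and -1.77 in Stomach_Non-Glandular, without single rats they ran from -1.54 to 3.68, -2.11 to 3.17 and -1.73 to 3.44 in that order, the lowest without replicate 5, for templated sequences they turned to -1.30, -1.79 and -1.50, and in flow cell D1GBMACXX to -1.85 in Jejunum and -1.71 in Stomach_Non-Glandular. Apart from the lane and the left-out libraries, the cause was not tested. Depth limits the non-epithelial tissues, where the median library held 41 counts of the 5 strands.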
